A study of Mus musculus with 6 samples.

Results

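The genes described here are reported targets of the transcription factor ATF4 together with cytosolic aminoacyl-tRNA synthetases, followed in mouse melanoma spheroids kept with or without the growth factor BMP2. They were given by name, as a list of 33 genes. The rule uses no measured value, but the list was drawn up with earlier results of these data known. Of the 33, 31 were found among the 34981 genes of the expression table, and Atf4 and Slc38a2 were not analysed here. All 31 passed the filter on low counts and stood among the 12929 genes tested. By role they were 6 regulators of the response, 8 enzymes of amino acid and one-carbon metabolism, 5 amino acid transporters and 12 tRNA synthetases.

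B16F10 is an established mouse melanoma line, so each library reports on 1 tumour cell line without host tissue. Per the labels, 500 cells were seeded in 50 µl of Matrigel, a basement membrane extract, at 7 mg/ml. The spheroids then received either BMP2 at 100 ng/ml, a ligand whose receptors signal through SMAD proteins, or PBS, the buffer control, for 10 days. The experiment was run 3 times, and each run, which the labels call a batch, supplied 1 BMP2 library and 1 PBS library.

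ATF4 is a bZIP transcription factor of the integrated stress response. When kinases that sense amino acid shortage, misfolded protein in the endoplasmic reticulum or other stresses phosphorylate the initiation factor eIF2, general translation falls while the ATF4 message is translated more. ATF4, usually paired with a C/EBP protein, then binds C/EBP-ATF response elements and switches on genes that import amino acids, build serine, glycine, proline and asparagine, and charge tRNAs. Ddit3, Trib3, Sesn2 and Chac1 are further targets that feed back on the response or on cell survival. In melanoma, ATF4 is known from states of nutrient shortage and of low pigmentation.

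The DNA that ATF4 can recognise was looked for in the promoters of these genes, a feature that is read without their expression values. The search used the letters TGATGNAAN (N is any base), a common form of the response element, on both strands of the 300 bases from 250 before to 50 after each annotated start in RefSeq (GRCm38.p6). A promoter window was present for 25 of the 31 genes, and 11 of these 25 (44.0%) held a match. Among all 27025 genes with a window, 1215 (4.5%) held one, or 3.95% of all 32851 windows. Matches were present in 2 of 6 regulators, 2 of 8 enzymes, 2 of 3 transporters and 5 of 8 tRNA synthetases. The 7 windows of the 6 matching genes whose level differed between runs, described further on, are printed in the orientation of the element, with the match in capitals:
Trib3, chr2:152344029-152344057, plus strand: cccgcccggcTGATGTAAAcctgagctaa
Chac1, chr2:119351038-119351066, minus strand: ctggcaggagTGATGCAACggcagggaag
Asns, chr6:7693214-7693242, minus strand: cccagccacaTGATGAAACttcccgcacg
Slc7a11, chr3:50443661-50443689, minus strand: ctcatgtggcTGATGCAAAcctggagaat
Slc7a11, chr3:50443643-50443671, plus strand: ggctgcatgaTGATGCAAAttctccaggt
Slc1a4, chr11:20332700-20332728, plus strand: aggctggagaTGATGCAACgcaggaggca
Tars, chr15:11399656-11399684, plus strand: gctaaccagcTGATGCAACgggactcctg
Slc7a11, which encodes the cystine importer xCT, held 1 match on either strand, 66 and 48 bases upstream of its start. The other 5 matching genes were Pycr1, Aars, Gars, Iars and Yars. Among genes outside the list, 7 of 15 other reported ATF4 targets with a window held the letters. So did 0 of 8 other cytosolic synthetases and scaffold proteins and 0 of 14 mitochondrial synthetases. The counts were 1 of 13 eIF2 genes, 1 of 13 other enzymes, 1 of 17 other amino acid transporters and 0 of 9 IRE1 and ATF6 branch genes. In lists this small, counts of 0 or 1 do not stand apart from the 4.5% over all genes. A match is a stretch of letters and not a measured binding site, and the letters may lie outside these windows in the other genes. The member list and the list of other targets hold genes reported as ATF4 targets. A raised share of matches may thus be built into that choice and is not independent support.

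**Figure D1:**
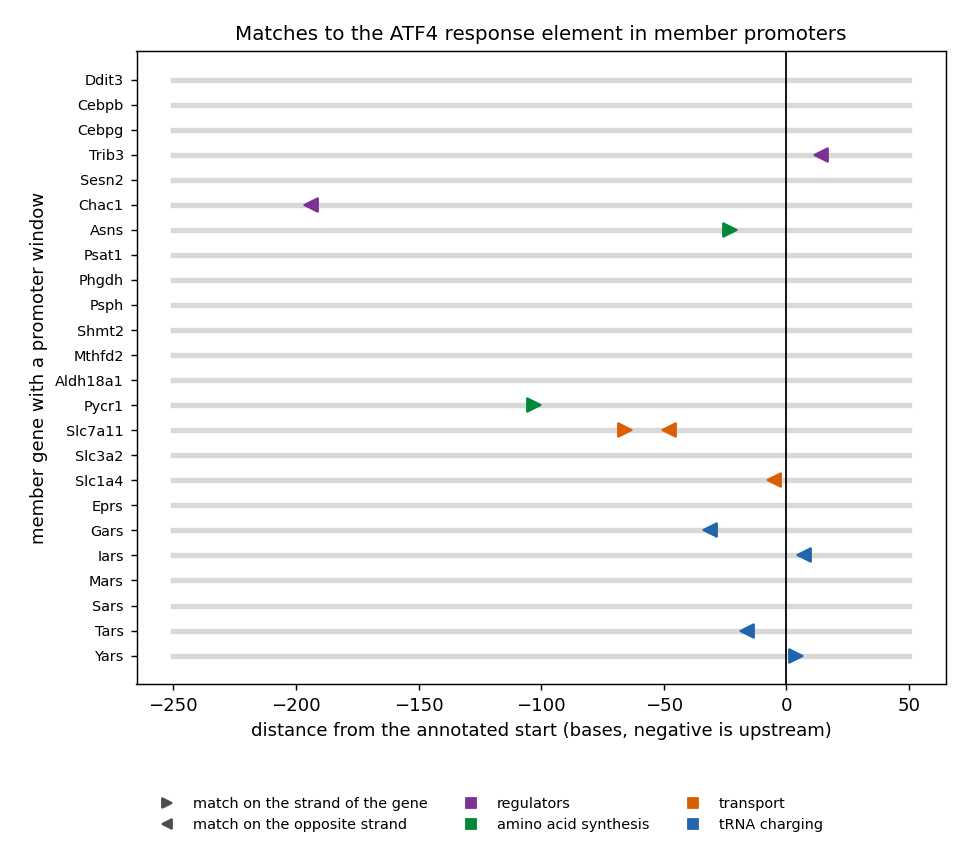
Position of each match to TGATGNAAN (arrowheads, pointing right on the strand of the gene and left on the opposite strand) in the promoter windows (grey bars) of the genes with a window, in bases from the annotated start (Aars is not drawn). The matches drawn lie between 194 bases upstream (Chac1) and 14 bases downstream (Trib3) of the start, and the position of the match in Aars is not given.

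The 6 libraries held 27821911 to 36856498 estimated counts. The PBS library of run 1 stood apart, at -86.9 on the first principal component (47.5% of the variance) against -16.4 to 58.7 for the others, and had the lowest scaling factor, 0.872. That component also rose from run 1 to run 3 with either treatment. Runs 1, 2 and 3 were at -86.9, -5.4 and 22.9 with PBS and at -16.4, 27.1 and 58.7 with BMP2. The 7 melanocyte markers summed to 23670 to 26310 CPM (estimated counts scaled to a common library size and composition) with PBS and to 28870 to 39070 CPM with BMP2. Markers of fibroblasts, leukocytes and endothelium summed to at most 8.52, 5.01 and 2.02 CPM in any library. Within these lists 4 of 6, 4 of 5 and 2 of 3 markers stayed under 1 CPM everywhere, and Adgre1 and Cdh5 were at 0. The markers above 1 CPM reached 7.32 (Pdgfra), 1.80 (Col1a1), 4.91 (Cd68) and 2.02 CPM (Pecam1). Of 4 epithelial markers only 2 had a row, and both stayed under 1 CPM. The part of these markers, or of the PBS library of run 1, in the results below was not tested except where values without that library are given. All libraries are of bulk RNA, so more RNA per cell and more of the cells that make it cannot be told apart. The BMP response gene Id2 was higher in every BMP2 library (186 to 717 CPM against 32.7 to 79.9 CPM; edgeR adjusted p = 0.0152).

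The first comparison asks whether BMP2 changed the level of these genes. No member passed the test in either direction: 0 of 31 were called higher and 0 lower. Among all genes tested, 0.371% were called higher and 0.364% lower, so the count of 0 among 31 does not stand apart from the rate over all genes. The quasi-likelihood test of edgeR was fitted with the run as a block, and a call means an adjusted p (Benjamini-Hochberg over all genes) under 0.05. Adjusted p-values of the members lay between 0.168 (Psph) and almost 1 (Gars). The Wald test of DESeq2, quantile normalization with limma, and edgeR without the block also called 0 members. Over all genes, the Wald test called 241 higher and 412 lower. Without the block edgeR called only 1 gene higher and 5 lower, so its 0 among 31 says little about the members. At an unadjusted p under 0.05, 5 members were higher with BMP2 (16.1%, against 8.12% of all genes) and 0 were lower (against 8.89%). Those 5 were Psph, Aldh18a1, Slc7a5, Lars and Wars.

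The log2 difference, BMP2 minus PBS, ran from -0.64 (Cebpb) to 0.69 (Slc7a5), with a median of 0.043 over the 31 members against 0.014 over all genes. The 95% confidence intervals of Psph, Aldh18a1, Slc7a5, Lars and Wars lay above 0 before adjustment over genes, and those of the other members spanned 0. By role the medians were -0.127 for regulators, 0.134 for amino acid synthesis, 0.240 for transport and -0.007 for tRNA charging. The BMP2 library exceeded the PBS library of its run in all 3 runs for 9 members (29.0%, against 22.7% of all genes) and lay below it in all 3 for 4 (12.9%, against 21.1%). For no member were the 2 groups of libraries separate, while 6.42% of all genes had every BMP2 library above every PBS library and 5.72% every one below. The sections that follow give the values by role.

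**Figure D2:**
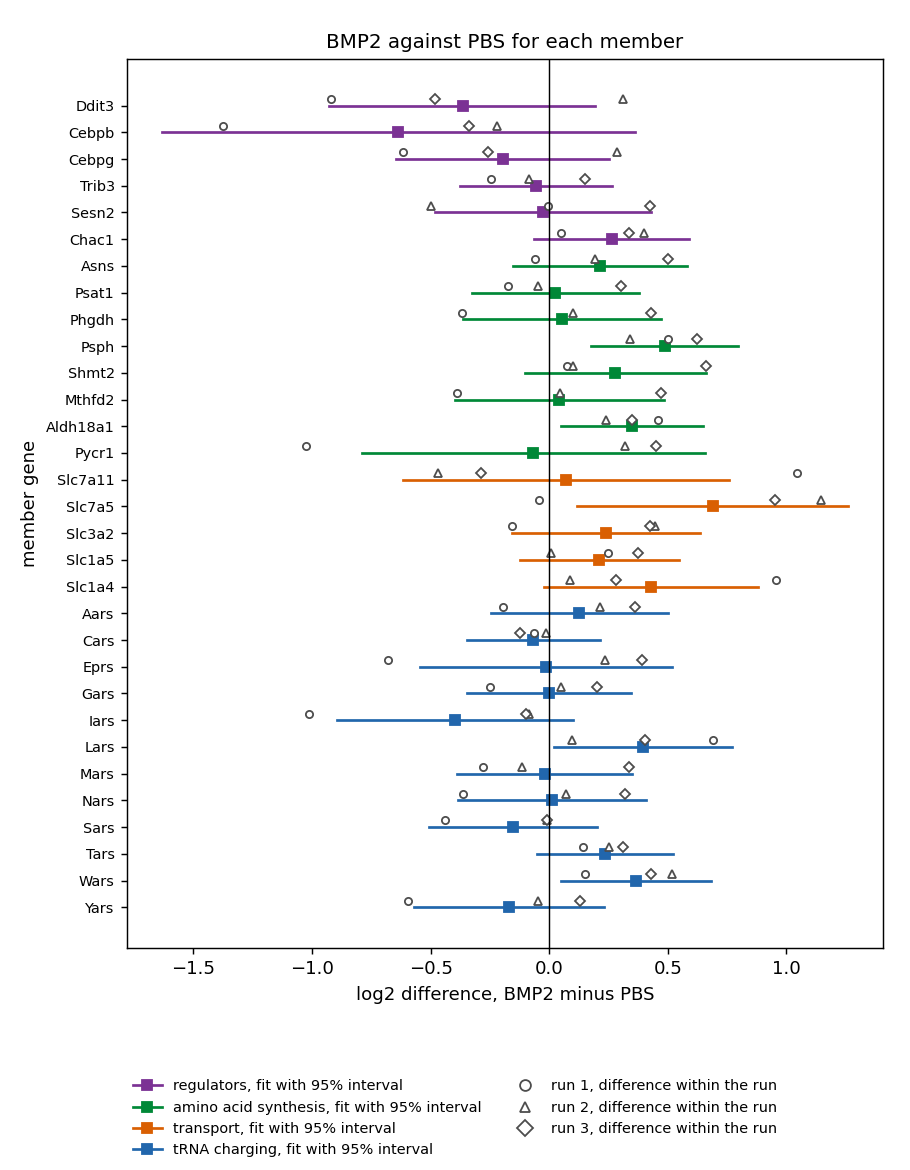
Log2 difference, BMP2 minus PBS, for each of the 31 members (squares, edgeR fit with run as a block; lines, 95% confidence interval), coloured by role, with the difference within each run as an open symbol. The fitted values lie between -0.64 for Cebpb and 0.69 for Slc7a5, and none of the 31 passed the test after adjustment over all genes.

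Among the regulators, Ddit3 encodes CHOP, a bZIP factor tied to cell death under prolonged stress. In the PBS libraries of runs 1, 2 and 3 it stood at 379, 151 and 146 CPM, and in the BMP2 libraries at 200, 188 and 105 CPM. The PBS library of run 1 was the highest and the groups overlapped, with a log2 difference of -0.37 (SE 0.24, adjusted p = 0.456). The 3′ end of Ddit3 overlaps that of the synthetase gene Mars on the opposite strand of chromosome 10. No source used here states whether strand was used in counting, so reads there could belong to either gene. Chac1, an enzyme that degrades glutathione, was at 26.8, 38.5 and 56.3 CPM with PBS and at 27.8, 50.7 and 71.1 CPM with BMP2. It was the only regulator above PBS in each run, by a fitted 0.26 (SE 0.14, adjusted p = 0.374). Trib3, a pseudokinase that restrains ATF4 and AKT, was at 41.8, 64.0 and 79.5 CPM with PBS and 35.3, 60.4 and 88.4 CPM with BMP2. Its levels in a given run were close with either treatment, and the fitted difference was -0.06 (SE 0.13). Sesn2, a leucine sensor upstream of mTORC1, Cebpg, a bZIP partner of ATF4, and Cebpb, a C/EBP factor, had fitted differences of -0.03, -0.20 and -0.64. Cebpb lay between 1.11 and 1.89 CPM with PBS and between 0.719 and 1.37 CPM with BMP2, and was the only regulator below PBS in each run. It shares 19.6% of its 31-base words with other genes, so its estimated counts are uncertain.

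The enzymes of amino acid synthesis held 3 of the 9 members that were above PBS in every run, and none below in every run. Psph, which removes the phosphate in the last step of serine synthesis, was at 26.4, 36.9 and 60.9 CPM in the PBS libraries of runs 1, 2 and 3. In the BMP2 libraries it was at 37.4, 46.7 and 93.7 CPM. The BMP2 library was above its PBS partner in each run, although the groups overlapped because the levels of the runs differed. The fitted log2 difference was 0.49 (95% confidence interval 0.18 to 0.80, adjusted p = 0.168), or 1.40-fold. Aldh18a1, which makes the proline precursor from glutamate, was at 63.2, 125 and 165 CPM with PBS and at 86.8, 147 and 210 CPM with BMP2. Its BMP2 value was likewise the higher in each run, with a fitted 0.35 (interval 0.05 to 0.65, adjusted p = 0.250). Shmt2, the mitochondrial enzyme that turns serine into glycine, was at 65.7, 119 and 166 CPM with PBS and at 69.1, 127 and 262 CPM with BMP2. Its within-run differences were 0.07, 0.10 and 0.66, so most of the fitted 0.28 (adjusted p = 0.410) came from run 3.

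Asns, which makes asparagine and carries the response element printed above, was at 161, 226 and 371 CPM with PBS. With BMP2 it was at 155, 259 and 526 CPM. The libraries of run 3 were the highest with either treatment, and the fitted difference between treatments was 0.21 (SE 0.15, adjusted p = 0.504). Phgdh and Psat1, which catalyse the first and the middle step of serine synthesis, had fitted differences of 0.05 and 0.03. Phgdh shares 56.3% of its 31-base words with other genes, chiefly the processed pseudogene Gm7901, so its estimated counts are uncertain. Adding the counts of that pseudogene did not change a call. Mthfd2, a mitochondrial folate enzyme, had a fitted 0.04. Pycr1, which completes proline synthesis, was at 18.2, 12.7 and 21.4 CPM with PBS and at 8.94, 15.9 and 29.3 CPM with BMP2. Its within-run differences were -1.02, 0.32 and 0.45, and they nearly cancelled in the fit (-0.07, SE 0.30).

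The transporters held the member with the largest fitted difference. That gene, Slc7a5 (chromosome 8, 121881150 to 121907694, minus strand, protein-coding, GRCm38), encodes LAT1, the exchanger that imports leucine and other large neutral amino acids. It was at 104, 146 and 244 CPM in the PBS libraries of runs 1, 2 and 3 and at 101, 322 and 471 CPM in the BMP2 libraries. In run 1 the difference was -0.04, while in runs 2 and 3 BMP2 was above PBS by 1.14 and 0.95 on the log2 scale. Over the 3 runs the fitted difference was 0.69 (SE 0.24, adjusted p = 0.240), or 1.61-fold (95% confidence interval 1.09 to 2.40). Leaving out run 1, which holds the PBS library that stood apart, gave 1.04 and an adjusted p of 0.00634, while leaving out run 2 or run 3 gave adjusted p-values of 0.586 and 0.395. Slc7a5 was the only member called in any of the 16 alternatives, and only without run 1. In that setting, which holds fewer libraries, 223 of all genes were called higher and 308 lower, against 48 and 47 with all runs. Calls were thus more frequent there over all genes, and the call of Slc7a5 is not particular to it. In the alternatives that kept all libraries, the adjusted p of Slc7a5 ran from 0.0571 (DESeq2 Wald test) to 0.883 (edgeR without the block). By edgeR without the filter it was 0.0670. The Wald test and the fit without the filter also called more of all genes than the main fit. Slc3a2, the heavy chain that holds LAT1 and xCT at the cell surface, showed the same order of within-run values, -0.16, 0.45 and 0.43. Its level was 303 ± 48.0 CPM with PBS and 367 ± 114 CPM with BMP2 (mean ± SD, n = 3), and the fitted 0.24 was not called (adjusted p = 0.488).

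Slc7a11, the xCT subunit, was at 12.6, 47.9 and 140 CPM with PBS and at 26.0, 34.5 and 115 CPM with BMP2. The within-run differences had opposite signs, 1.04 in run 1 against -0.47 and -0.29 in runs 2 and 3. The fitted value was 0.07 (SE 0.29), and its 95% confidence interval in fold terms was 0.653 to 1.69. Slc1a4, the neutral amino acid exchanger ASCT1, was at 9.95, 39.3 and 78.1 CPM with PBS and at 19.3, 41.7 and 95.1 CPM with BMP2. It was above PBS in each run, mostly in run 1, where the difference was 0.96 (fitted 0.43, adjusted p = 0.309). Slc1a5, the glutamine transporter ASCT2, was also above PBS in each run, with a fitted 0.21 (adjusted p = 0.469).

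The 12 tRNA synthetases, which load amino acids onto their tRNAs, were divided between higher and lower values. Lars, Tars and Wars, which charge the tRNAs of leucine, threonine and tryptophan, were above PBS in every run. Cars, Iars and Sars, for cysteine, isoleucine and serine, were below in every run. Wars was at 47.8, 76.6 and 95.3 CPM with PBS and at 53.1, 110 and 128 CPM with BMP2, a fitted 0.37 (SE 0.13, adjusted p = 0.251). Lars was at 20.2, 36.6 and 52.4 CPM with PBS and at 32.5, 39.1 and 69.3 CPM with BMP2, a fitted 0.40 (95% interval 0.02 to 0.77, adjusted p = 0.279). In both genes the highest value belonged to the BMP2 library of run 3 and the lowest to the PBS library of run 1. Tars had a fitted difference of 0.24 (adjusted p = 0.365). Iars was at 163, 152 and 221 CPM with PBS and at 80.9, 143 and 207 CPM with BMP2. The low BMP2 value of run 1 gave most of its fitted -0.40 (SE 0.21, adjusted p = 0.379). Iars and Aars share 14.7% and 14.4% of their 31-base words with other genes. The 8 remaining synthetases had fitted values from -0.17 (Yars) to 0.13 (Aars), and each 95% interval spanned 0.

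The difference between treatments also varied with the run. The median within-run difference of the 31 members was -0.173 in run 1, 0.095 in run 2 and 0.337 in run 3, while that of all genes was 0.017, -0.001 and 0.017. For 26 members (83.9%) the difference between BMP2 and PBS was larger in run 3 than in run 1, against 49.0% of all genes. The medians for amino acid synthesis were -0.116, 0.147 and 0.461, and those for tRNA charging -0.265, 0.061 and 0.314. Those for transport were 0.246, 0.086 and 0.376 and those for regulators -0.430, 0.101 and -0.051. With 1 library of either treatment per run, this change of the difference has no replicate and was not tested.

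More members were called between the runs than between the treatments. In a comparison of the 3 runs that was added after the data were seen, edgeR with treatment in the model called 15 of the 31 members (48.4%), against 8.12% of all genes. Calls and adjusted p-values for runs come from a joint F test of any difference among the 3 runs. They are not those of run 3 against run 1 alone. In all 15 the run 3 level was above the run 1 level, a result seen in 4.33% of all genes. They were 6 of 8 enzymes (Asns, Psat1, Phgdh, Psph, Shmt2 and Aldh18a1), 4 of 5 transporters (Slc7a11, Slc7a5, Slc1a5 and Slc1a4), 3 of 12 tRNA synthetases (Lars, Tars and Wars) and 2 of 6 regulators (Trib3 and Chac1). The median of run 3 minus run 1 was 0.92 on the log2 scale over all members (all genes -0.013). It was 1.68 for transport, 1.16 for amino acid synthesis, 0.788 for tRNA charging and 0.265 for regulators.

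The largest of these run differences belonged to the cystine and neutral amino acid transporters. Slc7a11 was 6.67-fold higher in run 3 than in run 1 (log2 2.74, SE 0.37) and Slc1a4 6.11-fold (2.61, SE 0.24). Their adjusted p-values in the joint F test over the 3 runs were 0.0269 and 0.0217. Slc7a5 was 3.21-fold higher (joint adjusted p = 0.0435), Shmt2 3.11-fold (joint adjusted p = 0.0258) and Asns 2.80-fold (joint adjusted p = 0.0265). The run 3 library was above the run 1 library with either treatment for 26 members (83.9%, against 36.0% of all genes). The median of run 3 minus run 1 was 0.610 among PBS libraries and 1.269 among BMP2 libraries (all genes -0.001 and -0.011). Each value rests on 1 library per run, and the gap between the treatments was not tested. Ddit3 was the only member lower in run 3 with either treatment, at -1.18 (SE 0.29, joint adjusted p = 0.0835), and thus did not follow the enzymes and transporters.

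The number of members called between runs depended on single libraries. Without the BMP2 library of run 2 it was 1 (Slc1a4; 0.278% of all genes), and without the PBS library of run 2 it was 3 (Shmt2, Slc7a11 and Slc1a4; 1.42%). Without the PBS library of run 1, the one that stood apart, it was 23 (14.7%), and without the BMP2 library of run 1 also 23 (30.5%). It was 11 (9.29%) without the BMP2 library of run 3 and 20 without the PBS library of run 3, where 2000 of 13297 genes were called. Only Slc1a4 was called in all 12 alternatives. The labels give no feature of a run beyond its batch number, so what differed between the runs cannot be told apart.

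**Figure D3:**
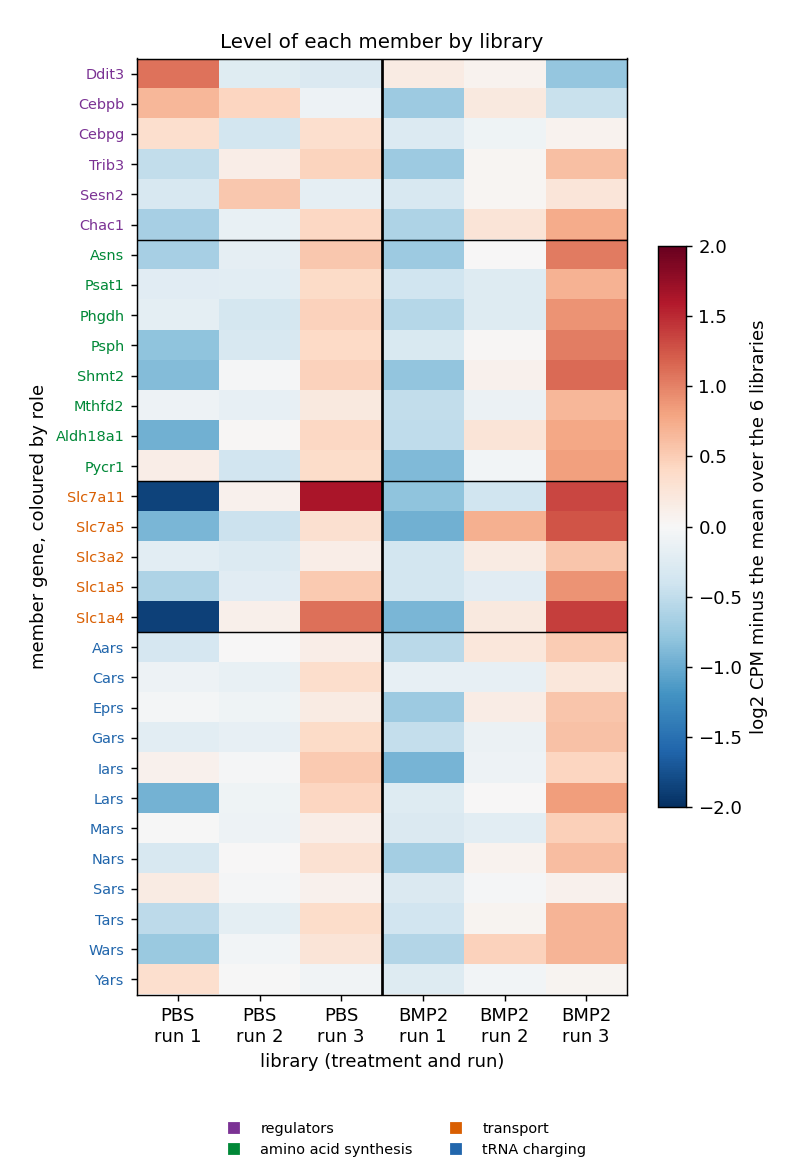
Level of each of the 31 members in the 6 libraries, as log2 CPM minus the mean of that gene over the libraries (colour), with genes ordered by role. The 2 libraries of run 3 are the reddest columns for most enzymes, transporters and synthetases, and Slc7a11 and Slc1a4 have the widest range, from 12.6 to 140 CPM and from 9.95 to 95.1 CPM.

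**Figure D4:**
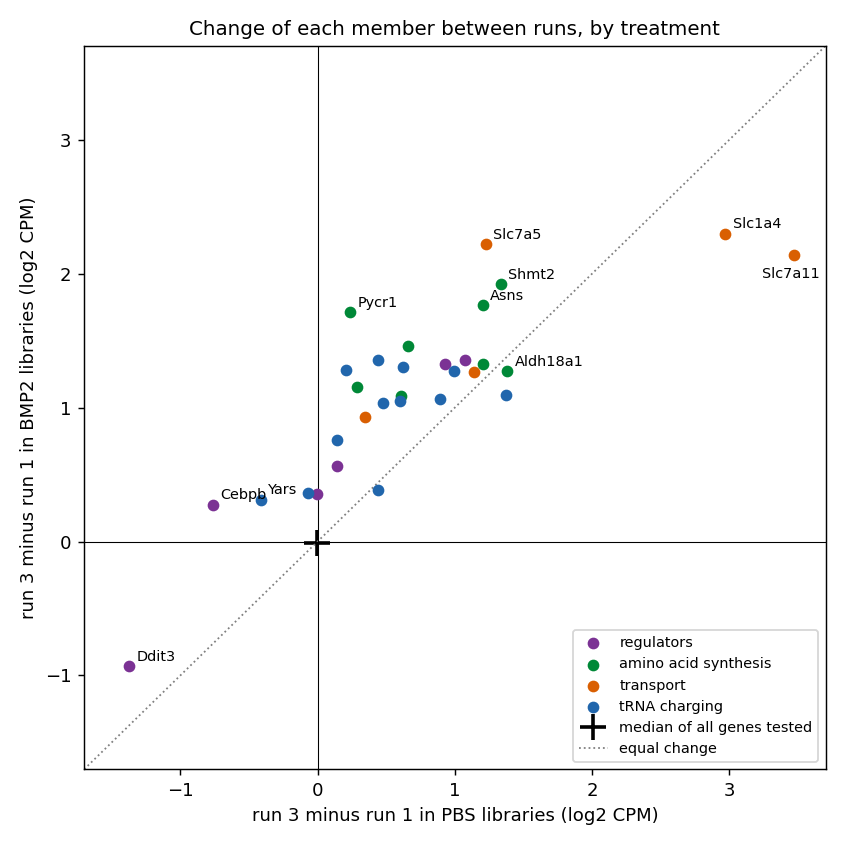
Run 3 minus run 1 (log2 CPM) among PBS libraries (horizontal) and among BMP2 libraries (vertical) for the 31 members, coloured by role; the cross is the median of all genes tested and the dotted line marks equal change. In 26 members both values are above 0, and only Ddit3 has both below 0.

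The rest of the pathway was compared in 7 further lists. With BMP2, 1 gene among them was called: Ddit4, the stress-induced inhibitor of mTORC1, in the list of other reported ATF4 targets (0 of 16 higher, 1 of 16 lower). Over all genes 0.371% were called higher and 0.364% lower. Ddit4 was at 172, 63.7 and 89.9 CPM with PBS and at 46.8, 33.6 and 37.9 CPM with BMP2. The groups did not overlap, and its log2 difference was -1.35 (SE 0.20, adjusted p = 0.0466). Without run 2 the adjusted p was 0.0734 and without the block 0.437. Atf3, a bZIP repressor induced by stress, lay between 23.6 and 34.0 CPM with PBS and stood at 22.5, 9.28 and 4.37 CPM with BMP2 (-1.58, SE 0.34, adjusted p = 0.117). Cbs, an enzyme of cysteine synthesis, had a fitted 1.15 (adjusted p = 0.154). The median over this list was -0.217.

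Upstream of ATF4, 0 of 16 eIF2 kinases, eIF2 and eIF2B subunits and eIF2 phosphatase subunits were called with BMP2. With 0.371% of all genes called higher and 0.364% lower, a count of 0 in so small a list does not stand apart. Ppp1r15a, the stress-induced phosphatase subunit that reverses eIF2 phosphorylation, was at 185, 139 and 61.3 CPM with PBS and at 110, 61.8 and 44.3 CPM with BMP2. It was below PBS in each run (-0.79, SE 0.16, adjusted p = 0.105). Eif2b3 and Impact had fitted values of 0.57 and 0.66 (adjusted p = 0.190 and 0.218). The IRE1 and ATF6 branches, the other arms of the endoplasmic reticulum stress response, had 0 of 11 called. Dnajb11, Hsp90b1 and Pdia4, chaperones and a disulphide isomerase of that compartment, had values of 0.41, -0.23 and 0.20.

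None of the 11 other cytosolic synthetases and scaffold proteins, the 17 mitochondrial synthetases, the 15 other enzymes of the same pathways or the 16 other amino acid transporters tested was called with BMP2. These counts of 0 do not stand apart from the rates over all genes, 0.371% higher and 0.364% lower. Rars, for arginine, was at 80.2, 101 and 144 CPM with PBS and at 105, 132 and 191 CPM with BMP2, and its within-run differences of 0.39, 0.39 and 0.40 were nearly equal (adjusted p = 0.204). Qars had a fitted -0.34 (adjusted p = 0.263) and Aimp1, a scaffold of the multisynthetase complex, -0.31 (adjusted p = 0.279). Among mitochondrial synthetases Rars2 and Ears2 had 0.73 and 0.72 (adjusted p = 0.185 and 0.304). Tyms, which makes thymidylate, had the smallest adjusted p of the enzymes, 0.0798, at 20.1 ± 6.83 CPM with PBS and 34.4 ± 12.9 CPM with BMP2. Glul had -0.39 (adjusted p = 0.279). Of the transporters, Slc1a2 (0.494 ± 0.145 CPM with PBS, 0.0623 ± 0.0693 CPM with BMP2) had -3.03 (adjusted p = 0.196), Slc38a3 -1.66 (adjusted p = 0.197) and Slc36a1 0.46 (adjusted p = 0.232).

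In these lists differences between runs were called for 7 of 16 other transporters (43.8%) and 6 of 16 other ATF4 targets (37.5%), in each case with run 3 above run 1. Over all genes the share called was 8.12%, and 4.33% were called with run 3 above run 1. Slc7a1, the arginine and lysine importer, was at 46.4, 114 and 197 CPM with PBS and at 58.6, 131 and 304 CPM with BMP2. Its run 3 minus run 1 was 2.23 (SE 0.18), with an adjusted p of 0.0170 in the joint F test over the 3 runs. Cth, the enzyme that releases cysteine, was at 3.32, 3.79 and 11.7 CPM with PBS and at 1.81, 2.98 and 13.5 CPM with BMP2. Such differences were called for 2 of 11 other cytosolic synthetases (Farsb and Rars) and 2 of 15 other enzymes (Mthfd1 and Tyms). They were called for 1 of 16 eIF2 genes (Ppp1r15a, lower in run 3), 0 of 17 mitochondrial synthetases and 0 of 11 genes of the IRE1 and ATF6 branches. In lists this small, counts of 0 to 2 lie near the share of 8.12% over all genes. Slc7a1, Cth, Farsb and Mthfd1 were picked for naming after their values were seen. The share of promoters with the response element was 6 of 11 among members called between runs and 5 of 14 among the other members, and the difference was not tested.

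**Figure D5:**
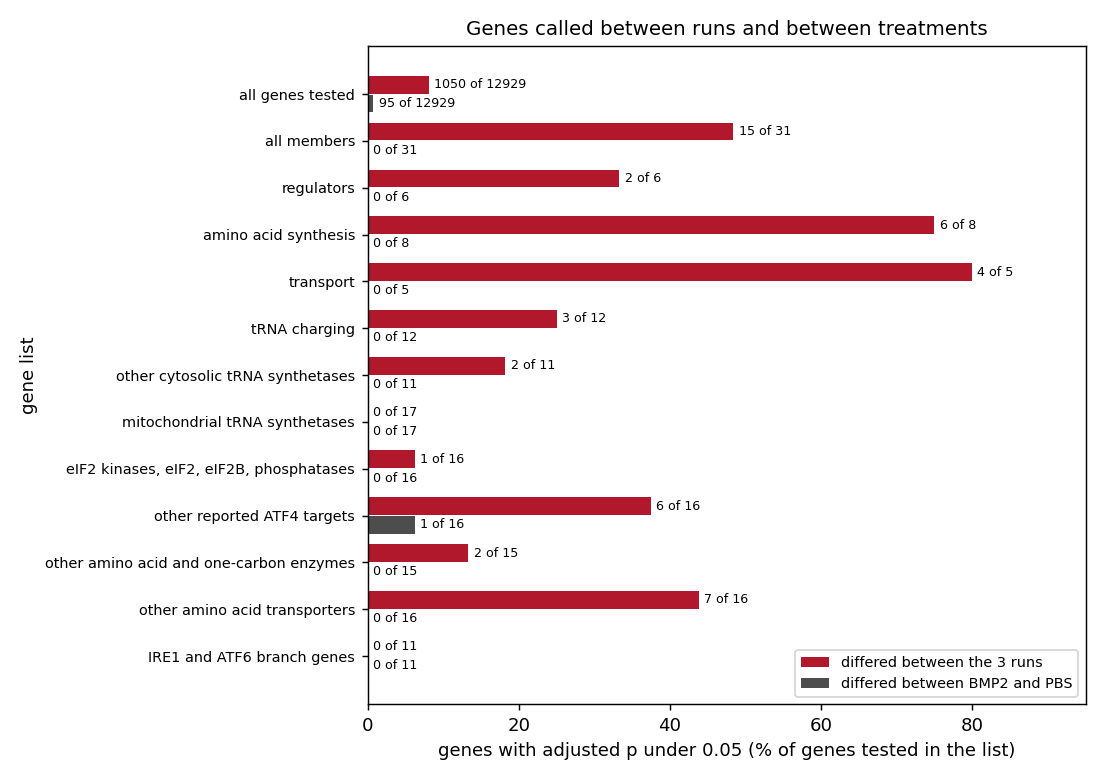
Share of tested genes called between the 3 runs (red) and between BMP2 and PBS (grey) in each gene list, with counts beside the bars (edgeR, adjusted p under 0.05). Between runs 15 of 31 members were called, against 8.12% of all genes, and between treatments 0 of 31.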

How the data were processed

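The authors deposited estimated counts per gene. Per the submitters' processing notes they used kallisto 0.44.0 and the build GRCm38.p6. No source used here states the annotation release, the step from transcripts to genes or the strand setting. Since kallisto shares ambiguous reads out by likelihood, values of genes with close copies are uncertain. Identifiers were matched to GENCODE M21 (34600 of 34981). Counts were rounded, filtered with filterByExpr and scaled by trimmed mean of M values, and edgeR 4.0.16 (R 4.3.3) gave the quasi-likelihood test. The model held run and treatment, which leaves 2 residual degrees of freedom. SEs were worked back from the F statistic, and values per library are scaled CPM (log2 with a prior count of 0.5 for within-run differences). Each group holds 3 libraries, which limits the precision of each value. The labels name the runs as batches, and deviations from the group means of the paired libraries of runs 1, 2 and 3 correlated at 0.48, 0.21 and 0.46 across genes. All members were named. From each other list every called gene and up to 3 with the smallest unadjusted p were named, apart from a few not reported here, and Id1 and Id2 checked the labels (Id1, 1.97 CPM with PBS and 19.1 CPM with BMP2, adjusted p = 0.131). The members and lists were chosen with earlier results of these data known. Alternatives were no replicate block, leaving out runs or libraries, no filter, a mean of at least 100 counts, DESeq2 1.42.0 size factors and Wald test, and quantile normalization with limma 3.58.1. The comparison of runs and the summing of copies (at least 50% of 31-base words inside a member, Python 3.11.15) were added after the data were seen. The fits were tested on simulated counts that held no differences between runs and changes larger than those fitted for the members. That simulation cannot show how often changes of the size fitted for the members would be called.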

Additional observations from a re-analysis of the deposited data

How the results depend on the processing

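No member was called in 15 of 16 alternatives, the exception being Slc7a5 without run 1 (Cebpb was not tested at a mean of 100 counts). Without the replicate block, 1 gene of all was called higher and 5 lower (0 in the other lists). Without the filter 223 were higher and 277 lower, and by the DESeq2 Wald test 241 and 412. In the other lists 1 was then higher and 4 lower in either case. Leaving out a run, or a library without the block, gave 0 to 223 genes higher and 2 to 308 lower, 0 to 1 members higher, and 0 to 1 higher and 0 to 3 lower in the other lists. Leaving out 1 library without the block leaves the groups with unequal runs.

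The median log2 difference of the members then ran from -0.253 to 0.357, that of amino acid synthesis from -0.286 to 0.552, that of transport from -0.272 to 0.950 and that of tRNA charging from -0.236 to 0.301. Genes called between runs numbered 2571 without the filter, 2708 by the DESeq2 likelihood ratio test and 37 to 3992 without a library (members 1 to 23).

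Signs of uncalled differences changed as follows. Without the replicate block, Pycr1 was at 0.04998, Slc7a11 at -0.194, Eprs at 0.0709, Gars at 0.0407 and Mars at 0.0200. With quantile normalization Eprs was at 0.0891, Gars at 0.131, Mars at 0.000284, Sars at 0.000689 and Hsp90b1 at 0.0264. Gars was at 0.0139 without the filter, and Nars at -0.00429 with the size factors and -0.00422 with the Wald test of DESeq2. Leaving out runs or libraries gave, among regulators, ranges of -0.697 to 0.134 (Ddit3), -0.432 to 0.00421 (Cebpg), -0.372 to 0.269 (Trib3), -0.252 to 0.256 (Sesn2) and -0.0491 to 0.616 (Chac1). Among enzymes they were -0.294 to 0.698 (Asns), -0.344 to 0.317 (Psat1), -0.422 to 0.447 (Phgdh), -0.253 to 0.737 (Shmt2), -0.277 to 0.340 (Mthfd2), -0.0105 to 0.658 (Aldh18a1) and -0.492 to 0.379 (Pycr1). Among transporters they were -1.15 to 0.950 (Slc7a11), -0.272 to 0.638 (Slc1a5) and -0.481 to 1.08 (Slc1a4). Among synthetases they were -0.0581 to 0.419 (Aars), -0.217 to 0.105 (Cars), -0.242 to 0.352 (Eprs), -0.310 to 0.262 (Gars), -0.0275 to 0.730 (Lars), -0.268 to 0.157 (Mars), -0.273 to 0.357 (Nars), -0.0824 to 0.541 (Tars) and -0.322 to 0.0341 (Yars). Hsp90b1 ran from -0.406 to 0.0560 and Pdia4 from -0.00276 to 0.316. For run 3 minus run 1, leaving out a library gave -0.796 to 0.320 (Cebpb), -0.134 to 0.502 (Cebpg), -0.0652 to 0.372 (Sars) and -0.365 to 0.278 (Yars). The cause was not tested. With 3 libraries per group the fit with the block has 2 residual degrees of freedom.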
